A study of Mus musculus with 12 samples.

Results

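The cytosolic ribosomal protein genes encode the proteins of the small and large subunits of the ribosome that translates messenger RNA in the cytosol. They were taken as the genes whose symbol is Rpl or Rps followed by a number, with at most a closing a, l or x, together with Rplp0, Rplp1, Rplp2, Rpsa and Fau. This rule found 84 of the 55291 genes in the deposited count table, 33 of the small subunit and 51 of the large subunit, on 20 chromosomes. The choice used symbols and no measured values. It leaves out pseudogenes with a -ps symbol, and it also misses, among others, Rps3a1, Rack1, Rpl36al, Rpl22l1 and Rpl7l1. It does take Rps4l, which GENCODE M21 lists as a transcribed processed pseudogene, and Rpl6l and Rpl32l, listed as processed pseudogenes.

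The libraries came from mouse testis cells of 2 stages collected by FACS, MII spermatocytes (cells labelled as in the second meiotic division) and round spermatids (RS, the haploid products of meiosis). The wildtype (WT) cells carry no further genotype label. The knockout (KO) cells are labelled Pan2flox/-;Stra8-Cre, that is, 1 deleted allele and 1 floxed allele of Pan2 with Cre under the Stra8 promoter, known to act in premeiotic germ cells. Each of the 4 groups has 3 libraries, made by the Smart-seq2 method from polyadenylated RNA primed with oligo(dT), and no label gives the age or number of mice or says whether WT mice carried Cre or a floxed allele.

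In mammals the X chromosome is transcriptionally silenced during male meiosis and remains largely repressed in round spermatids. Several X-linked ribosomal protein genes have autosomal copies that arose by retroposition and are transcribed in the testis, among them Rpl10l and Rpl39l. Messenger RNAs of ribosomal proteins are known as a group for a pyrimidine tract at their 5′ end, through which their translation responds together to growth signals. Pan2 encodes the catalytic subunit of the PAN2-PAN3 deadenylase, which shortens poly(A) tails.

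Total counts ran from 13781370 to 38652066 per library, and all members together took 1.37% to 1.87% of them. Levels are given as CPM (counts per 1e6 after TMM scaling). For Pan2 the WT libraries gave 12.9, 17.1 and 13.3 CPM at the MII stage and 9.93, 8.13 and 12.9 at the RS stage. The KO libraries gave 5.57, 7.10 and 5.07 CPM at the MII stage and 22.6, 4.73 and 3.52 at the RS stage. The value of 22.6, from the library labelled KO RS replicate 1, was the highest of the 12. The level of Pan2 in that library goes against its label, so the calls that rest on KO RS are also given without it. The 20 Sertoli cell markers, genes of the somatic cells that surround the germ cells, summed in MII to 30.7, 48.5 and 56.8 CPM with the WT label and to 493, 242 and 119 with the KO label. In RS the sums were 12.2, 11 and 15 for WT and 361, 57.2 and 90.1 for KO. Amh was at 0 in every group, and Gata4 and Rhox5 were at 0 in WT RS. The 10 markers of round spermatids were present in every library and summed to 3690 to 5382 CPM in MII and 4004 to 6786 CPM in RS, so over both genotypes the stages overlap. Within WT the sums overlap as well, while in KO they were 4883 to 5382 CPM in MII and 5911 to 6786 CPM in RS, with 3 of the 10 called higher in RS. In bulk libraries fewer cells of a type and less RNA per cell cannot be told apart. Nothing in the labels says whether replicates came from separate mice, so the spread behind the p-values is that of libraries and may be only technical.

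The ribosomal protein genes spanned a wide range of levels per exon length. Over the 12 libraries the mean level was 717.6 CPM per kb for Rpl36, 608 for Rplp0 and 576 for Rps29, the 3 highest. The next place was taken by Rpl39l, the testis copy of Rpl39, at 521 CPM per kb, and Rpl10l, the testis copy of Rpl10, stood at 380 CPM per kb. In WT MII Rpl36 was at 768 ± 76.3 CPM per kb (SD, n = 3) and Rpl39l at 689 ± 38.5, and the order of the 2 was not tested. The lowest members were Rps10 at 0.0642, Rpl3l at 0.0679 and Rpl24 at 0.740 CPM per kb. Rpl3l is a copy of Rpl3 known from striated muscle. Rps10 and Rpl24 encode core subunits, yet Rps10 had between 0 and 12 counts per library. In the deposited gene models 20.6% of the exon bases of Rps10 and 47.0% of those of Rpl24 lie in another gene on the same strand, as do 35.4% of those of Rpl13a, at 0.896 CPM per kb. The sources used here do not say whether overlapping reads were counted, and the part of this overlap in these low values was not tested. Over all members the Spearman correlation of level per kb with this overlap was −0.27 (n = 84), and with the number of near-identical copies among annotated transcripts it was −0.20 (n = 81). These are descriptions across genes that share libraries.

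**Figure D1:**
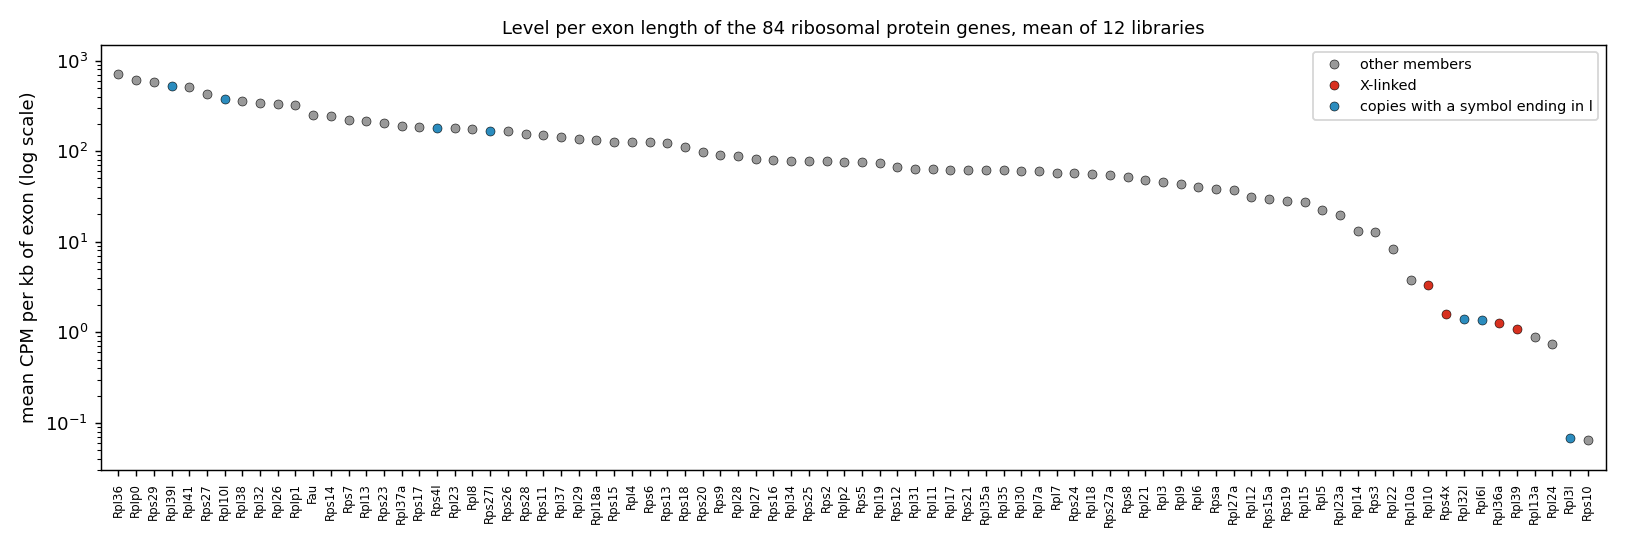
Mean level of each of the 84 ribosomal protein genes over 12 libraries, in CPM per kb of exon on a log axis, sorted from high to low. Red points are the 4 X-linked members, blue points the copies with a symbol ending in l and grey points the rest. Rpl39l and Rpl10l stand among the 7 highest, while every X-linked member lies at or below 3.34 CPM per kb.

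Near-identical copies matter for these genes, since reads that match several places may be lost or shared. Counting annotated transcripts with at least 95% identity over at least 90% of the coding sequence, the 81 members with a coding sequence in GENCODE M21 had a median of 5 copies elsewhere, 6 members had none and 17 had 10 or more. Rpl39 and Rpl10 had 9 each, Rps4x 7 and Rpl36a 6, while Rpl39l had 0 and Rpl10l 1. Values of the X-linked members are uncertain to that extent, since the sources used here do not say how reads with several positions were treated. The X-linked genes and their autosomal copies are themselves well separated. The coding sequences of Rpl39 (chromosome X, 37082520 to 37085402, minus strand, mm10) and Rpl39l (chromosome 16, 10170226 to 10174911, plus strand) are both 156 bases long, with 133 identical and 23 differing bases, and the longest identical run is 38 bases, shorter than a 151-base read. They are shown because the members of this pair stand at opposite ends of the levels. Capitals mark the bases that differ, and the sequences follow GENCODE M21.
Rpl39 coding sequence: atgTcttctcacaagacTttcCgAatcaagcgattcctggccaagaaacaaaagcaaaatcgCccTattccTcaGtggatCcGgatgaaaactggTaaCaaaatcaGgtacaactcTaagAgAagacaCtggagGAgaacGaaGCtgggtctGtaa
Rpl39l coding sequence: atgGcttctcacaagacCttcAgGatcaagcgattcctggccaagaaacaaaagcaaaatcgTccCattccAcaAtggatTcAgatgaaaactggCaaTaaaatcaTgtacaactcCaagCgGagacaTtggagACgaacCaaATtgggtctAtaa
Rpl10 and Rpl10l share 84.8% of 645 bases, Rpl36a and its copy Rpl36al 87.9% of 321 bases, and Rps4x and Rps4l 80.2% of 787 aligned bases.

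Across the stages of wildtype cells the ribosomal protein genes were lower in RS. Of the 82 members tested, 38 were lower in RS than in MII and 0 were higher at an adjusted p under 0.05 (edgeR's quasi-likelihood test, Benjamini-Hochberg adjustment over 21291 genes), while 57 had an unadjusted p under 0.05. Among all genes tested, 8.68% were called lower and 7.74% higher. The median log2 fold change of the members was −0.37, a fold of 0.771, against −0.03 for all genes, and 78 of 82 had a negative sign. Values of 61 members in the 3 RS libraries all lay below those in the 3 MII libraries and 0 lay above, against 15.9% and 14.5% of all genes. Summed over the members, the share of counts was 1.80% ± 0.034 (SD, n = 3) in WT MII and 1.42% ± 0.063 in WT RS, and the groups did not overlap. Both subunits contributed, with 15 of 32 and 23 of 47 tested members lower and medians of −0.39 and −0.38. The 12 Leydig cell markers summed to 144 to 173 CPM in WT MII and 62.8 to 72.0 CPM in WT RS. Most of the sum in WT RS was Fdx1, with a mean of 105 CPM in WT MII and 65.5 in WT RS. Hsd3b1, Hsd17b3 and Insl3 were at 0 in WT RS. Of 11 tested Leydig markers 9 were called lower in RS, with a median log2 fold change of −4.82. Other markers fell too, with 8 of 11 for myoid and stromal cells (median −3.40) and 4 of 19 for Sertoli cells (−2.41). Of 10 markers of prophase spermatocytes 3 were lower (−0.07), and 0 in these lists were higher. With Sertoli and Leydig scores as covariates 0 members and 0 of all genes were called. Leydig markers themselves differ between the stages, so that fit cannot separate scores from stage. The count of 38 became 14 with only the WT libraries in the fit, 20 with no filter on low counts, 9 without WT RS replicate 1, 17 without WT RS replicate 2 and 25 without WT MII replicate 3. The sign of the members' median held under each scaling, −0.37 to −0.38.

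Outside the X chromosome 2 members fell by more than 1 on the log2 scale. Rps27a, which encodes ubiquitin fused to a small subunit protein, was at 155, 169 and 186 CPM in WT MII and at 76.3, 57.8 and 87.9 in WT RS. All MII values exceeded all RS values, and the log2 fold change was −1.20 (SE 0.16, adjusted p = 7.29e-05). Rpl14, a large subunit protein, was at 24.2, 31.6 and 29.9 CPM in WT MII and at 9.73, 8.16 and 13.9 in WT RS, again with no overlap (log2 fold change −1.43, SE 0.22, adjusted p = 0.000375). Rps3, a protein at the mRNA entry of the small subunit, fell by 0.75 on the log2 scale, Rps7 by 0.69 and Rpl10a, of the L1 stalk, by 0.93. Fau, a fusion with a ubiquitin-like protein, was at 245, 282 and 313 CPM in WT MII and at 197, 220 and 222 in WT RS (log2 fold change −0.39, SE 0.13, adjusted p = 0.0392), and its call was lost under 13 of 20 alternatives.

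The stalk proteins Rplp0, Rplp1 and Rplp2, which recruit elongation factors to the large subunit, did not pass the test, with 0 of 3 at an unadjusted p under 0.05 and 0 called by DESeq2. From MII to RS in WT 2 of the 3 had negative values, and 1 lay wholly lower in RS. The median log2 fold change of the 3 was −0.21 and the lowest −0.26. Rplp0 was at 816, 1009 and 959 CPM in WT MII and at 889, 992 and 996 in WT RS, and these ranges overlap (log2 fold change 0.05, SE 0.12). The highest positive value among the members was that of Rps2, at 0.22 (SE 0.13, adjusted p = 0.283). Rpsa, which also serves as a laminin receptor precursor, had a log2 fold change of 0.09.

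In knockout cells the same comparison of stages called 15 members lower and 0 higher, against 8.17% and 4.16% of all genes. Of these, 13 were also called in WT, and Rpl4 and Rps15 were called in KO only, while 25 were called in WT only. The members' median was −0.21 (all genes −0.01), 75 of 82 signs were negative, and 40 members lay wholly lower and 3 wholly higher (Rps2, Rpsa and Rpl30), against 19.2% and 17.8% of all genes. The summed share was 1.74% ± 0.111 in KO MII and 1.47% ± 0.079 in KO RS, without overlap. Rps27a was at 136, 133 and 128 CPM in KO MII and at 56.5, 49.7 and 64.6 in KO RS, so the groups stood well apart (log2 fold change −1.21, SE 0.16, adjusted p = 6.08e-05). Rpl14 was at 45.9, 34.9 and 29.2 CPM in KO MII and 14.1, 9.24 and 11.1 in KO RS (log2 fold change −1.67, SE 0.22, adjusted p = 8.26e-05). Rps3 at −0.88, Rps7 at −0.72, Rpl9 at −0.67 and Rpl10a at −1.04 were also lower. The count of 15 fell to 7 without KO RS replicate 2 and to 9 without KO MII replicate 1, and was 11 without the library labelled KO RS replicate 1. Leydig markers summed to 219 to 364 CPM in KO MII and 78.0 to 81.6 CPM in KO RS. Most of the sum in KO RS was Fdx1, with a mean of 84.7 CPM in KO MII and 72.0 in KO RS. Of 11 tested Leydig markers 8 were called lower in RS, with a median log2 fold change of −3.71. Lower calls also came from 5 of 11 myoid and stromal markers (median −0.89) and 1 of 19 Sertoli markers (−0.48). Of 10 prophase spermatocyte markers 3 were lower (−0.50), and 0 in these lists were higher. With the marker covariates, which cannot be separated from stage here either, 0 members and 0 of all genes were called.

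The difference between the genotypes in this change, which is also the difference of the knockout effect between stages, was called for 0 of 82 members and for 0.0047% of all genes. With unadjusted p under 0.05 there were 4 members. DESeq2 called 1 member, Rpl39, and edgeR without a filter called 3 (Rpl36a, Rpl39 and Rps4x). The smaller number of calls in KO is therefore not shown to be a smaller change, apart from those X-linked genes under the settings named. Over the members the median difference (KO effect in RS minus that in MII) was 0.15, with 62 of 82 positive, against −0.03 for all genes. The mitochondrial ribosomal protein genes had a like median of 0.16, with 53 of 74 positive. For Rps27a the difference was −0.02 (SE 0.22), and for Rplp0 0.00 (SE 0.16).

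**Figure D2:**
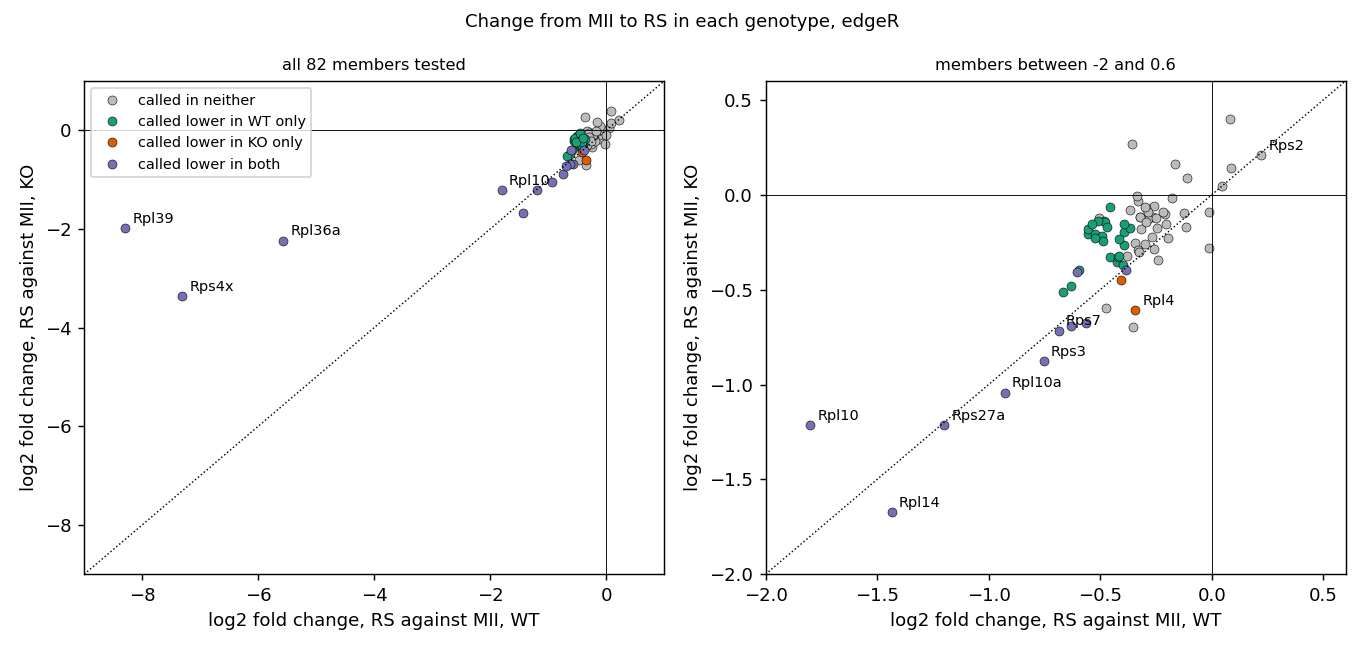
Log2 fold change from MII to RS in WT (x) and in KO (y), edgeR, for 82 members, with the full range on the left and members between −2 and 0.6 on the right. Colours show the genotype in which a member was called and the dotted line marks equal change. The left panel sets Rpl39, Rps4x and Rpl36a apart in WT, with values that rest on counts at or near 0 in WT RS, and the right panel shows Rpl14, Rps27a and Rpl10a low in both genotypes.

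In MII cells few ribosomal protein genes differed between knockout and wildtype. By edgeR and by DESeq2 alike, 0 of 82 members were called higher and 1 lower (4 had an unadjusted p under 0.05 in edgeR), against 1.83% and 1.86% of all genes, or 3.68% in either direction. Of the members 4 lay wholly above and 6 wholly below WT, against 11.7% and 10.4% of all genes. The median log2 fold change was −0.01, with 39 positive and 43 negative signs. The summed level was 17768 ± 909 CPM for WT and 17409 ± 858 CPM for KO (SD, n = 3), and the ranges overlap. In 78 of 82 members the log2 fold change lay between −0.5 and 0.5.

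The exception was Rpl39l. In MII it was at 597, 536 and 584 CPM in the WT libraries against 403, 400 and 425 in the KO libraries. In RS it was at 434, 404 and 477 CPM in WT against 290, 285 and 357 in KO. Every KO library lay below every WT library of the same stage. Its log2 fold change was −0.48 (SE 0.13, adjusted p = 0.0376) in MII and −0.50 (SE 0.13, adjusted p = 0.0137) in RS, in edgeR's test over all genes. The difference between the stages was −0.01 (SE 0.18). The MII call was lost under 10 of 20 alternatives, with adjusted p = 0.859 when Sertoli and Leydig scores were covariates. It was also lost in the fits that left out any 1 KO MII library, with adjusted p up to 0.133. Without the library labelled KO RS replicate 1 it was lost as well (0.0513). The RS call was lost under 4 of 20 alternatives, with adjusted p = 0.715 under the same covariates. The other losses were without WT RS replicate 3 (0.0669), without that same KO RS library (0.0866) and without KO RS replicate 2 (0.0745). Its sign was negative under all of them, from −0.29 to −0.53 in MII and −0.35 to −0.61 in RS.

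Among the other copies, Rpl10l, which mouse spermatocytes need to complete meiosis, was at 382, 445 and 392 CPM in MII cells of WT and 373, 434 and 428 in those of KO. In RS it was at 348, 326 and 379 CPM for WT and 383, 371 and 399 for KO. The genotypes overlap at both stages, with log2 fold changes of 0.02 (SE 0.12) and 0.13 (SE 0.12). Rps4l overlapped in MII but was lower in KO RS, at 138, 132 and 148 CPM against 175, 187 and 203 in WT RS (log2 fold change −0.44, SE 0.14, adjusted p = 0.0485), a call lost under 13 of 20 alternatives. Rps27l was at 107, 115 and 124 CPM in WT RS and at 122, 124 and 125 in KO RS, with no call in either stage. Rpl3l had 0 to 8 counts per library and was not tested. None of these direct comparisons between copies was itself tested.

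In round spermatids the knockout libraries held more of the X-linked members. All 4 were called higher, against 6.06% of all genes, and the 2 members called lower were Rpl39l and Rps4l, against 7.39%. Rpl39, which lines the peptide exit tunnel, had 22, 34 and 40 counts in WT MII against 144, 104 and 68 in KO MII. At the RS stage it had 0, 0 and 0 counts in WT and 64, 8 and 12 in KO. With 3 counts over the group taken as the floor for WT RS, Rpl39 in KO RS stood at 31.8 times that floor (edgeR's adjusted p = 0.000748). Without the library labelled KO RS replicate 1 it stood at 12.2 times the floor. These ratios leave out the spread of the KO counts, so they are not lower limits. Rps4x, a small subunit protein, had 0, 2 and 0 counts in WT RS and 32, 4 and 10 in KO RS. The ratio of pooled CPM was 26.1 (95% counting interval 6.84 to 222), and 12.8 (2.93 to 116) without the same library. Rpl36a, a large subunit protein near the exit site of transfer RNA, had 4, 0 and 2 counts in WT RS and 47, 10 and 16 in KO RS, a ratio of 13.8 (6.06 to 38.9), or 7.90 (3.18 to 23.5) without that library. Rpl10, which joins the large subunit late in its assembly, had the highest level per exon length of the 4 and was at 1.95, 2.85 and 2.17 CPM in WT RS and 6.82, 3.80 and 4.66 in KO RS (log2 fold change 1.13, SE 0.26, adjusted p = 0.00846). In each of the 4 genes every KO RS library lay above every WT RS library, and the highest value came from replicate 1 of the KO label.

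The calls of Rpl10 and Rpl36a were lost without the library labelled KO RS replicate 1 (adjusted p = 0.0728 and 0.0600), that of Rpl10 also without WT RS replicate 1 (0.0552) and that of Rpl36a also without WT RS replicate 3 (0.0547). Those of Rpl39 and Rps4x held in every fit that left out 1 library. In MII 0 of the 4 passed the test in the main edgeR fit or in DESeq2 (2 at an unadjusted p under 0.05 in edgeR). Their log2 fold changes in MII ran from 0.34 for Rpl36a to 1.44 for Rpl39 (adjusted p = 0.140). Without the filter on low counts edgeR called 1 of them in MII, Rpl39. In RS the Sertoli markers were higher in KO as well. Their sum was 361, 57.2 and 90.1 CPM in KO RS against 11 to 15 in WT RS. Of 19 tested Sertoli markers 11 were called higher in KO RS and 0 lower (4 and 0 without the library labelled KO RS replicate 1). In KO MII the Sertoli sums were 493, 242 and 119 CPM and those of the 4 X-linked members 37.0, 20.4 and 18.9. In WT MII the order differed, with Sertoli sums of 30.7, 48.5 and 56.8 CPM and X-linked sums of 20.5, 15.8 and 14.4. With Sertoli and Leydig scores as covariates 0 members were called in any comparison. These markers differ between the groups compared, so that fit cannot separate scores from groups. Calls among all genes also fell in it, for the knockout at each stage and for both stage comparisons. Other X-linked genes moved the same way. Of 786 tested genes of the chromosome that are not members, 29.8% were called higher and 0.254% lower in KO RS, with a median log2 fold change of 0.67, and 11.1% were called higher in KO MII. Without the library labelled KO RS replicate 1, 11.9% were called higher and 0 lower in KO RS, with a median of 0.61, against 1.68% and 3.27% of all genes. The parts of cell makeup and of the chromosome in the values of the 4 members were not told apart by these data. Of the 48 counts of the 4 genes 44 were even numbers, as were 78.7% of all counts from 1 to 49 in the table. The counting intervals and the floor of 3 counts treat each count as independent. Intervals would be too narrow and the floor too low if both mates of a read pair were counted. The sources used here do not state that setting.

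**Figure D3:**
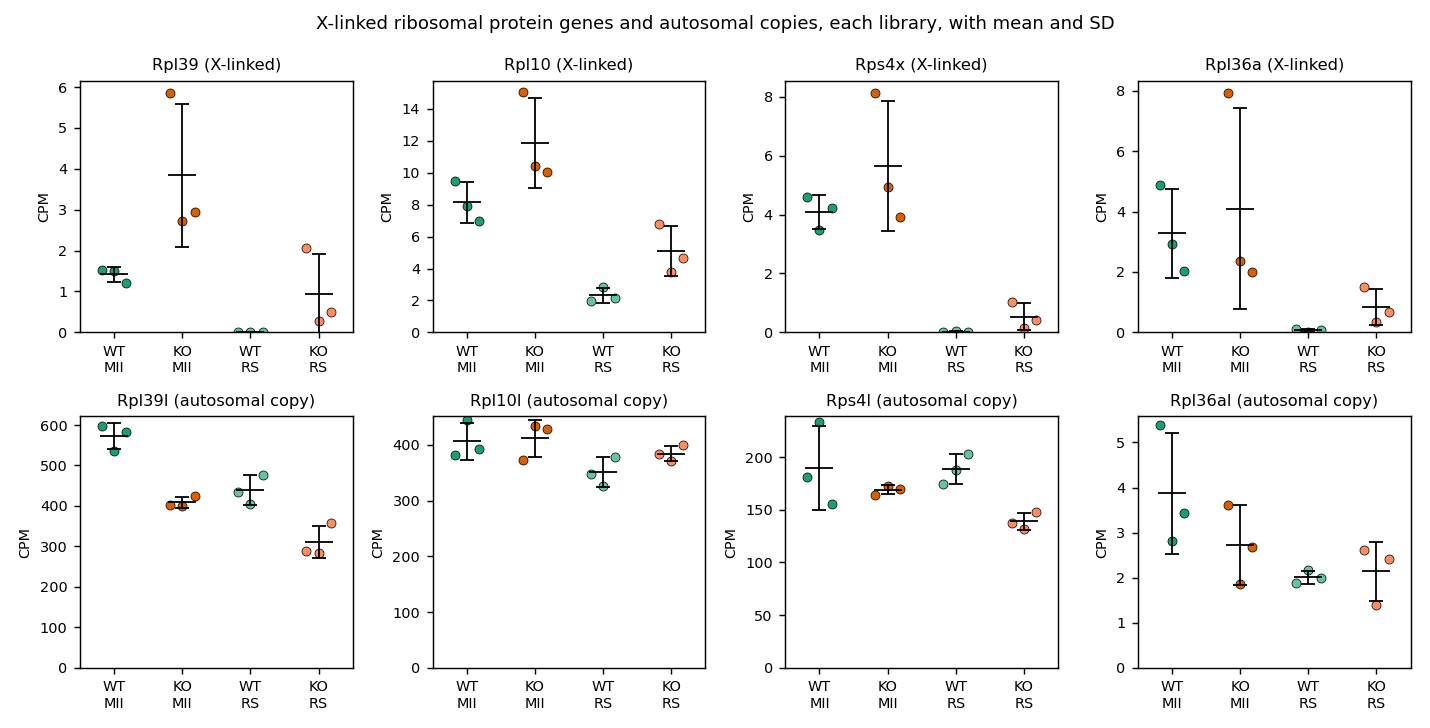
CPM of each X-linked member (top) and of its autosomal copy (bottom) in every library, by group, with the mean and SD of 3 libraries. Rpl39 is at 0 in all WT RS libraries while Rpl39l lies between 404 and 477 CPM there, and Rpl39l is lower in KO than in WT at both stages.

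From MII to RS the 4 X-linked members fell in both genotypes. In WT Rps4x had 284 counts over the MII libraries and 2 over the RS libraries, a ratio of 191 (52.3 to 1582), and Rpl36a had 203 and 6, a ratio of 45.4 (20.5 to 125). Rpl39 in WT MII stood at 43.0 times the floor taken for WT RS, and Rpl10 fell by 1.80 on the log2 scale. In KO the log2 fold changes were −3.37 for Rps4x, −2.24 for Rpl36a, −1.98 for Rpl39 and −1.21 for Rpl10, all called. Without the library labelled KO RS replicate 1 they were −4.33, −2.98, −3.27 and −1.49, all called. Those of Rpl36a and Rpl39 were lost, with all other libraries kept, without KO MII replicate 1 (adjusted p = 0.147 and 0.121), without KO RS replicate 2 and without KO RS replicate 3. On the scale of levels per exon length, the X-linked gene made up 0.144% of the pair Rpl39 and Rpl39l in WT and 0.543% in KO at the MII stage, and 0% in WT and 0.184% in KO at the RS stage. For Rpl10 and Rpl10l the shares in the same order were 0.994%, 1.44%, 0.332% and 0.655%. Rpl36a and its autosomal copy Rpl36al were of like level in MII, where the X-linked gene held 40.4% of the pair in WT and 50.9% in KO, but it held 2.57% in WT RS and 22.7% in KO RS. The highest share of the X-linked gene in any library was 0.834% for the pair of Rpl39 and 1.97% for the pair of Rpl10, both in KO MII.

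**Figure D4:**
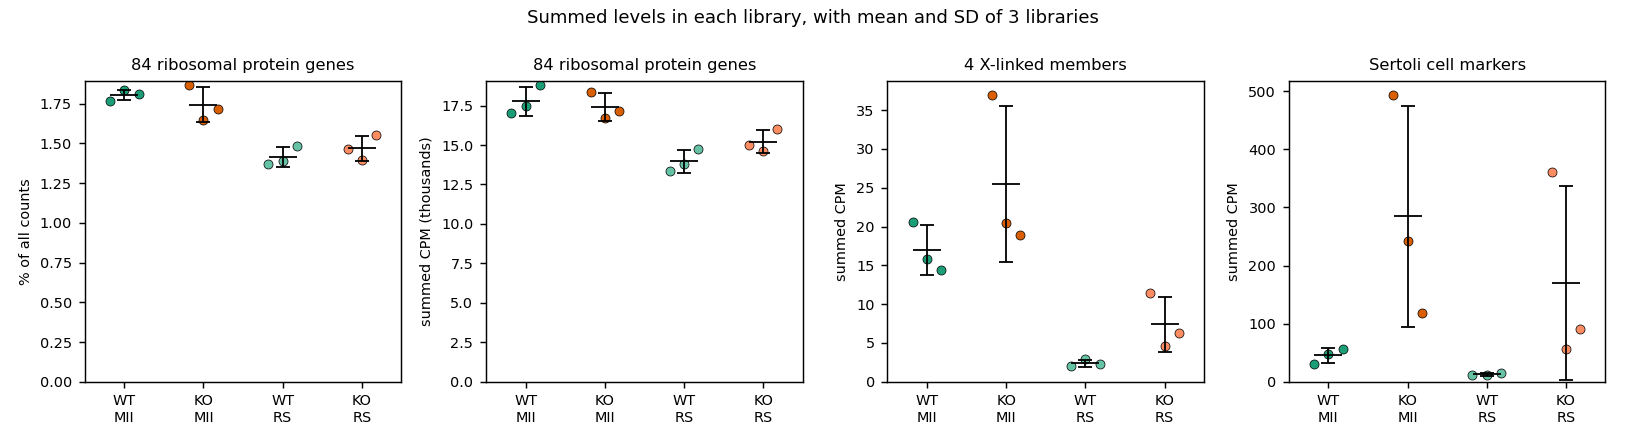
Summed values in each library by group, with the mean and SD of 3 libraries: the share of counts and the CPM of all 84 members, the CPM of the 4 X-linked members and the CPM of the Sertoli cell markers. The summed members are lower in RS than in MII, while the X-linked members and the Sertoli markers are both highest in the library labelled replicate 1 of each KO group.

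Most members had small positive values in knockout round spermatids. The median log2 fold change of the 82 tested members was 0.14, a fold of 1.10, against −0.01 for all genes, and 70 of 82 signs were positive. Of the members 31 lay wholly above the WT RS libraries and 2 wholly below, against 17.8% and 18.3% of all genes. Leaving out the X-linked genes and the copies, 0 of 72 were called by edgeR (5 at an unadjusted p under 0.05) and 1, Rps6, by DESeq2. Of these 72, 26 lay wholly above and 0 wholly below. The largest positive value was 0.33, for Rps6, the substrate of S6 kinase. The lowest was −0.72, for Rpl13a, at 1.95 CPM in WT RS and 1.17 in KO RS, with overlap (edgeR's adjusted p = 0.231). Rps6 was at 161, 165 and 167 CPM in WT RS and at 212, 208 and 201 in KO RS, without overlap (SE 0.12, adjusted p = 0.0831). Rps18 was at 236, 230 and 243 CPM in WT RS and at 280, 299.6 and 286 in KO RS (log2 fold change 0.29, SE 0.12, adjusted p = 0.128). The summed level was 13979 ± 725 CPM in WT RS and 15200 ± 724 in KO RS (SD, n = 3), and as a share of raw counts 1.42% ± 0.063 and 1.47% ± 0.079, and by either measure the groups overlap. Without a composition factor in the scaling the median was 0.07 with 62 positive signs, while the median of all genes moved to −0.08, so the distance between them stayed at 0.15. Markers of germ cell stages moved as well. The round spermatid markers summed to 4004 to 5101 CPM in WT RS and 5911 to 6786 CPM in KO RS, with 10 of 10 positive, 5 called higher and a median log2 fold change of 0.48. Of 10 markers of prophase spermatocytes 3 were called lower and 1 higher, with a median of −0.30. Of 10 markers of elongating spermatids 4 were called lower (40.0%, against 7.39% of all genes) and 0 higher. Those 4 were Prm1 (−2.68), Prm2 (−2.35), Tnp2 (−2.23) and Tnp1 (−1.33), while 6 of the 10 were positive and their median was 0.17. Their part in the members' values was not tested. Without the library labelled KO RS replicate 1 the members' median was 0.15, and the values were 0.31 for Rps6, 0.31 for Rps18 and 0.13 for Rpl10l. Of the 6 calls, 2 remained without that library and 3 without WT RS replicate 3.

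**Figure D5:**
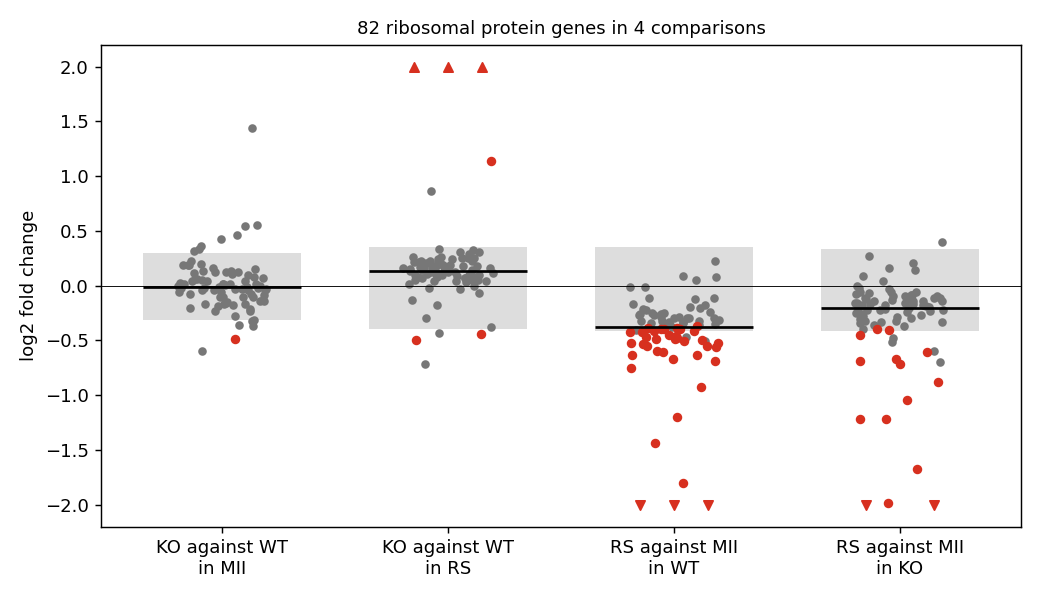
Log2 fold change of each of the 82 tested members in 4 comparisons, with red points for members called by edgeR at an adjusted p under 0.05, triangles for values beyond 2 drawn at the edge, black lines for the members' median and grey boxes for the quartiles of all genes tested. The median lies at −0.01 and 0.14 for the knockout in MII and RS and at −0.37 and −0.21 for the stages in WT and KO.

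The promoters of 62 members were in the RefSeq table (GRCm38.p6), from 250 bases before to 50 after the annotated start. The letters CTTTCC, a tract of pyrimidines with a form typical of the starts of ribosomal protein transcripts, stood on the sense strand within 50 bases of the start in 19 of 62 members (30.6%), against 5.4% of all 27025 genes in the table and 5.1% of the 13946 of them that were tested, and on either strand in 32.3% against 10.3% and 9.9%. The next shares are for the whole window, from 250 bases before to 50 after the start, on either strand. There the letters CCGGAAG, the core of ETS family sites, stood in 25 of 62 members (40.3%), against 9.9% of all genes and 16% of those tested. ATGGCGG, a core of YY1 sites, stood in 16.1% against 4.7% and 7.2%. TATAAA stood in 11.3% of members, 15.7% of all genes and 10.9% of those tested. Within 50 bases of the start, on either strand, TATAAA stood in 6.5% of members, 5.8% of all genes and 3.8% of those tested. The order of members and all genes for TATAAA thus depends on the window. CCGGAAG and ATGGCGG were more frequent in members in both windows. None of these motifs contains another, though their ends can overlap. The windows from −50 to +10 of 3 members are shown because they differ in these letters and in level, with CTTTCC and CCGGAAG or their reverse complements in capitals.
Rpl39 (chrX:37085213-37085272, minus strand): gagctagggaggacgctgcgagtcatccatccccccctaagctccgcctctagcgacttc
Rpl39l (chr16:10170178-10170237, plus strand): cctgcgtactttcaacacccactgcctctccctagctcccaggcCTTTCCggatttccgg
Rps7 (chr12:28635944-28636003, minus strand): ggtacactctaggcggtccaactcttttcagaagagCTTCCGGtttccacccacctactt
From MII to RS in WT the 18 tested members with CTTTCC on the sense strand near the start had a median log2 fold change of −0.46, with 10 called lower, and the 42 without had −0.37, with 19 called lower. For the knockout in RS both medians were 0.13. A match is a description of letters in this window, and the difference between these groups was not tested.

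Other genes of translation set these values in context. Of 74 tested mitochondrial ribosomal protein genes, 20 were lower and 1 higher from MII to RS in WT, with a median log2 fold change of −0.37, and 10 were lower and 0 higher in KO, with a median of −0.20. These are 27.0% and 13.5% lower, against 8.68% and 8.17% of all genes tested. The cytosolic genes had medians of −0.37 and −0.21 in the same comparisons, and the lists were not tested against each other. Examples are Mrpl45, at −1.47 in WT and −1.41 in KO, and Mrps6, at −1.07 and −1.03. For the knockout 1 was lower in MII, Mrpl33 (−1.09), which is 1.35% against 1.86% of all genes. The median of the 74 in MII was −0.17, with 58 negative signs, against −0.01 for all genes. In RS 4 were lower (5.41%, against 7.39% of all genes), and the median of the 74 was 0.02. Without the library labelled KO RS replicate 1 those 4 calls were lost. Of 46 ribosome biogenesis genes 6 were lower and 4 higher from MII to RS in WT, 11 lower and 0 higher in KO, and for the knockout in RS 8 were lower and 1 higher. In WT this is 13.0% lower and 8.70% higher, near the 8.68% and 7.74% of all genes. In KO it is 23.9% lower against 8.17%, and for the knockout in RS 17.4% lower against 7.39%. Without the library labelled KO RS replicate 1, 7 were lower in the KO stage comparison and 3 for the knockout in RS (6.52%, against 3.27% of all genes). Those lower in KO RS include Nat10, an RNA acetyltransferase (log2 fold change −1.11, adjusted p = 0.0043), Polr1a, the largest subunit of RNA polymerase I (−1.07), and Lsg1, a GTPase of late large subunit maturation (−0.98). Without that library their values were −0.96, −1.02 and −0.88, each still called. Sbds, another late factor, was lower in RS than in MII in both genotypes (−1.03 and −0.93).

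Another 17 genes of translation have messages that carry the same kind of 5′ tract. From MII to RS in WT these were called about as often as all genes, 17.6% against 16.4%. There 2 rose, Eef2 (log2 fold change 0.81) and Eif4b (0.54), and 1 fell, Eef1b2 (−0.55), while 0 were called for the knockout at either stage, with 1 in MII and 2 in RS at an unadjusted p under 0.05 in edgeR and 0 and 1 called by DESeq2. From MII to RS in KO 4 of the 17 were called (23.5%, against 12.3% of all genes), 1 higher and 3 lower. Of 18 genes that control ribosomal protein messages or genes, 5 fell from MII to RS in WT (27.8%, against 8.68% of all genes). Those 5 include Yy1, a transcription factor (−1.23), and Tial1 (−0.82), and 1 of the 18 rose. In the KO stage comparison 6 of the 18 fell (33.3%, against 8.17% of all genes) and 0 rose. In KO RS 1 of the 18 was lower and 1 higher, 5.56% each, against 7.39% and 6.06% of all genes. These were Larp4b (−0.81) and Eif4ebp1, a brake on cap-dependent translation (0.80). Without the library labelled KO RS replicate 1 they were at −0.77 (adjusted p = 0.0482) and 0.68 (0.172). Of 9 genes that rescue stalled ribosomes, Gtpbp2 was the 1 called, lower in KO RS (−0.59), and at −0.64 without that library (adjusted p = 0.0541). This is 11.1% called in KO RS, against 13.4% of all genes in either direction. Of 4 copies outside the rule, Rpl22l1 (−0.60) and Rpl7l1 (−0.66) were lower from MII to RS in WT.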

How the data were processed

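The authors deposited whole-number counts per gene for 12 libraries. Per the submitters' processing notes, the build was mm10 and the tools were featureCounts 2.0.2, STAR 2.7.10a, DESeq2 and Trim Galore 0.6.7, whose settings no source used here states. Genes were filtered with filterByExpr (minimum count 10, minimum total count 15), which left 21291 of 37839 genes with a count and 82 of 84 members (not Rpl3l or Rps10). edgeR 4.0.16 in R 4.3.3 fitted a quasi-likelihood model with TMM scaling to all 12 libraries, with 8 residual degrees of freedom and a biological coefficient of variation of 22.3%. P-values were adjusted over all genes tested and called at 0.05. Replicates differed by more than counting noise, with chi-square per degree of freedom from 9.32 to 93.5. For a single gene, permuting 3 libraries against 3 exactly gives no p under 0.1, so no such test was run. Intervals cover counting error only, and the floor of 3 counts covers that of the WT RS counts alone. The fit was tested on simulated data. Copies were found with BLAST+ 2.17.0 and pairs aligned with Biopython 1.88, on GENCODE M21. Genes were named by rule: Pan2, the X-linked, copy, stalk and ubiquitin-fusion members, up to 8 called members per comparison with the smallest adjusted p (3 where none was called), the 3 highest and lowest levels per kb, and up to 3 called genes per other list. Rpsa, Rps2, Rpl30, Rps6, Rps18, Rps15, Rpl4, Rpl13a, Rpl6l, Rpl32l, Fdx1, Prm1, Prm2, Tnp1, Tnp2 and genes behind counts under other settings were named after their values were seen. The members and lists were chosen with earlier results of these data known. Alternatives were other scalings, filters, DESeq2 1.42.0, fits to the compared groups, a replicate block, marker covariates and each library left out.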

Additional observations from a re-analysis of the deposited data

How the results depend on the processing

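Each alternative under which a called and named member could be fitted kept the sign of its change. Calls of members moved by more than 1.5 times as follows. With the marker covariates 0 were called in MII, in RS and in both stage comparisons, and among all genes 29 in MII, 110 in RS, 5 for the difference and 0 in each stage comparison. With only the compared groups in the fit there were 0 members in MII and 14 in the WT stage comparison, and 403, 2108 and 4451 genes in MII and in the WT and KO stage comparisons. With no filter, 20 members were called in the WT stage comparison and 3 for the difference, with 1440 genes in MII and 65 for the difference. At 5 CPM in 3 libraries 3 members were called in RS, and 0 genes for the difference. DESeq2 called 1 member and 19 genes for the difference and 1519 genes in MII. The cause of these moves was not tested.

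With each library left out, member calls ran from 0 to 1 in MII, 2 to 9 in RS, 9 to 33 in the WT stage comparison and 7 to 19 in KO, and were 0 for the difference. Calls over all genes ran from 147 to 976, 1080 to 3573, 1776 to 3980, 1096 to 3286 and 0 to 2. The summed share ran from 1.79% to 1.82% in WT MII, 1.68% to 1.79% in KO MII, 1.38% to 1.44% in WT RS and 1.43% to 1.51% in KO RS. Without mitochondrial and the 10 most counted genes it was 1.88% in WT MII and 1.49% in WT RS.

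The labels do not say that same-numbered libraries are paired, and in no comparison did all 3 pairs of deviations from the group means correlate above 0.1. Same-number values were −0.143 to 0.0445 in MII, 0.0101 to 0.155 in RS, −0.203 to 0.0377 between WT stages and 0.0836 to 0.287 between KO stages. Between KO stages 5 of 6 libraries, and in RS 5 of 6, correlated best with their own number, a hint from the data and not from the design. With the replicate block, 1, 5, 0, 34 and 14 members were called in MII, in RS, for the difference and in the WT and KO stage comparisons, and 744, 2691, 3, 3341 and 2527 genes. The X-linked members rest on few counts in WT RS, so their fold changes there are set by the floor or the fit.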
